A study of Rattus norvegicus with 58 samples.

Results

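The effect of 500 mg/kg 4-methylcyclohexanemethanol (MCHM) was compared between 2 organs, liver and kidney, gene by gene. The quantity reported is the liver effect minus the kidney effect, that is, the mean of livers at 500 mg/kg minus the mean of livers at 0 mg/kg, minus the same difference in kidney, on the log2 scale and on the same probe set in both organs. A positive value means that the liver effect lay above the kidney effect. MCHM is an alicyclic alcohol used in cleaning coal. Male Harlan Sprague-Dawley rats received it by gavage for 5 days, and the controls were the groups at 0 mg/kg of each organ. The comparison rests on 5 control livers, 4 livers at 500 mg/kg, 5 control kidneys and 4 kidneys at 500 mg/kg, 18 of the 58 arrays of the series. The other 40 arrays, at 0.1, 1, 10, 100 and 300 mg/kg, entered the same fit to estimate the spread. Of 14217 genes named by a probe set with a single symbol, 10673 were measured above the filter in both organs and were tested.

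Liver and kidney meet an ingested alcohol in different ways. Hepatocytes oxidise and conjugate it and, when fed, build fatty acids and cholesterol from cytosolic acetyl-CoA, which ATP citrate lyase makes from citrate. Proximal tubule cells of the kidney live mainly on fatty acid oxidation, take organic acids from the blood into the urine, and carry a set of medium-chain acyl-CoA synthetases and glutathione transferases that partly differs from that of liver. A gene can therefore answer a dose in one organ and not in the other, and the difference between the organs needs its own test, because a gene that passes in liver and not in kidney is not thereby shown to differ.

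The organ labels were borne out by the marker transcripts. All 14 hepatocyte markers were higher in every liver than in every kidney, and the reverse held for 11 of 12 proximal tubule markers, 13 of 14 distal nephron markers and 5 of 5 glomerular markers. One kidney at 500 mg/kg, replicate 3, stood apart. Its summed level of 12 white adipose markers was 13.95 against 10.21 to 10.38 in the other 3 dosed kidneys, and that of 11 brown adipose markers was 13.77 against 10.80 to 10.95. Ucp1, the uncoupling protein that defines brown fat, read 12.40 there and 4.49, 4.58 and 4.58 in the other 3. A control kidney, replicate 1, also had more white adipose transcript, at 11.20 against 10.16 to 10.47 in the other 4 controls. In control kidney replicate 2 the 14 hepatocyte markers summed to 12.28 against 10.88 to 11.43 in the other controls, Alb (albumin) read 10.19 against 3.75 to 5.93, and Hp (haptoglobin) 7.03 against 4.52 to 4.91. The called differences are therefore given with and without the dosed kidney replicate 3. The values came from whole organ pieces, so fewer cells of a type and less RNA per cell cannot be told apart.

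At 500 mg/kg, 13 genes differed in their response between the organs, 11 with the higher change in liver and 2 with the lower. The higher ones were Acly, Acsm2, Me1, Sectm1b, Hes6, Asap2, Lactb2, Atp1b1, Sqstm1, Fbxo6 and Rnf139, and the lower ones were Tfpi and Aph1a. Their differences ran from 0.40 to 1.08 upward and were -0.65 and -0.33 downward. A call here is a Benjamini-Hochberg adjusted p under 0.05 in limma, a linear model fitted across all genes, two-sided, and 0.122% of the 10673 genes passed it, 0.103% with liver higher and 0.0187% with liver lower. An unadjusted p under 0.05 was reached by 912 genes, where 534 would be reached by chance. The median standard error (SE) of a difference between the organs was 0.141, against 0.0996 for the effect in a single organ. In the same fit 197 genes passed in liver (1.85%, 0.899% higher and 0.946% lower) and 26 in kidney (0.244%, 0.159% higher and 0.0843% lower).

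The count of called genes was small and moved with single arrays. Without kidney 500 mg/kg replicate 3, 5 genes passed (0.0468%, 0.0375% higher and 0.00937% lower), namely Acly, Asap2, Lactb2, Sqstm1 and Tfpi. The count was 54 without control kidney replicate 1, 31, 25 and 6 without dosed kidney replicates 4, 2 and 1, 6 without control liver replicate 4, and 26, 8 and 4 without dosed liver replicates 2, 3 and 4. With only the 18 arrays in the fit, none passed, with 963 genes at an unadjusted p under 0.05. All 13 kept the sign of their difference under the 35 alternatives computed for each. Asap2 and Lactb2 passed in 34 of the 35, Sqstm1 in 33, Sectm1b in 32 and Tfpi in 31, whereas Acsm2 passed in 13 and Aph1a in 19.

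**Figure D1:**
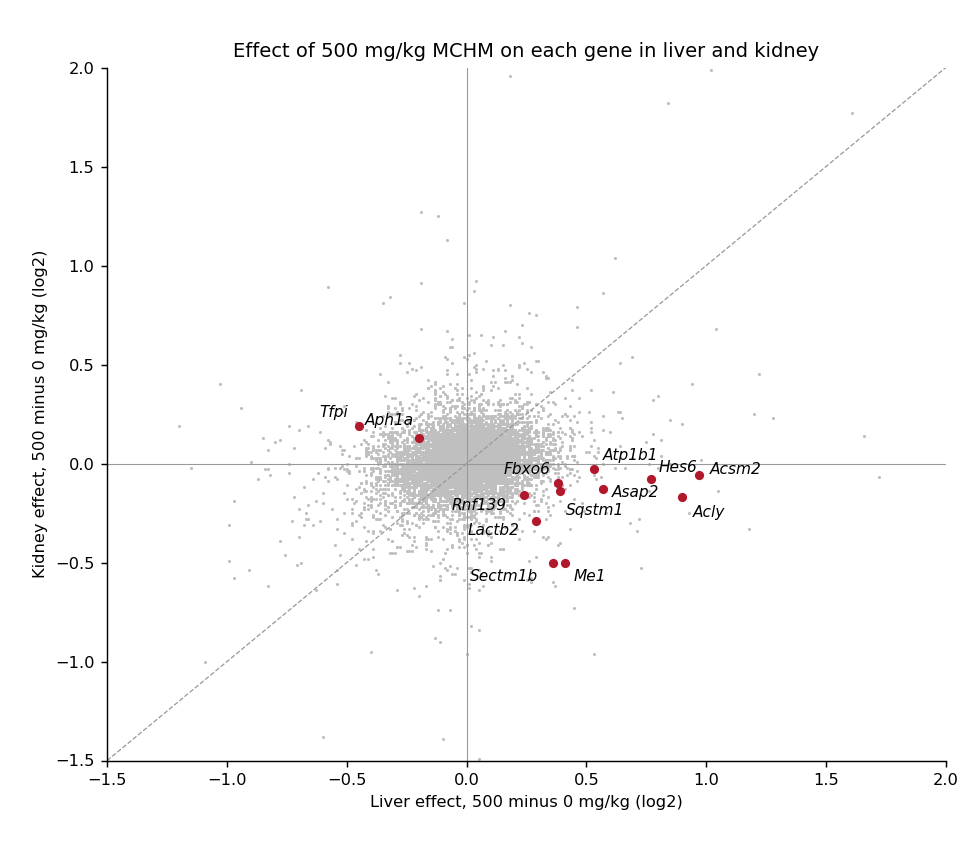
Kidney effect (y axis) against liver effect (x axis) of 500 mg/kg, both as differences of log2 means, for the genes tested, with the 13 called genes in red and the line of equal effect dashed. The red genes lie below the line on the right or, for Tfpi and Aph1a, above it on the left, and 4 genes lie outside the plotted range.

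**Figure D2:**
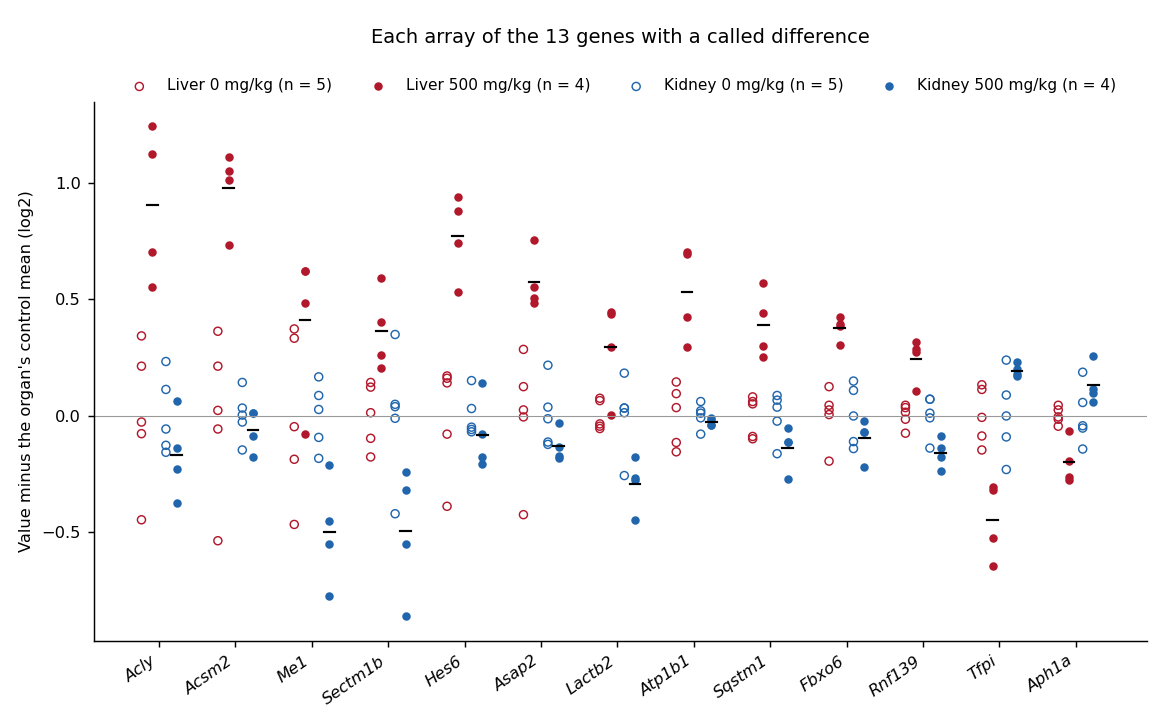
Every array of the 13 called genes, as its log2 value minus the control mean of its organ, with open points for 0 mg/kg, filled points for 500 mg/kg and a bar at the mean of the dosed arrays. The dosed livers (red) and the dosed kidneys (blue) do not overlap for any of the 13.

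The dosed arrays can also be read one by one, as changes from the control mean of their organ. For all 13 called genes the changes of the 4 livers and those of the 4 kidneys did not overlap. The same held for 4.9% of all genes with liver higher and 6.55% with liver lower, so that non-overlap alone was common. In 113 genes (1.06%) all 4 livers were above and all 4 kidneys below their control means, and in 207 genes (1.94%) the reverse was seen.

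The 13 calls were made up in different ways. In Acly, Acsm2, Hes6, Asap2, Atp1b1, Sqstm1, Fbxo6, Rnf139, Tfpi and Aph1a the liver effect passed and the kidney effect was between -0.17 and 0.19. In Me1, Sectm1b and Lactb2 both organs contributed, with liver effects of 0.41, 0.36 and 0.29 and kidney effects of -0.50, -0.50 and -0.29, of which only that of Lactb2 in liver passed. None of the 13 passed in kidney by itself.

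Acly, ATP citrate lyase, had the largest difference of the called genes. Its log2 values in control livers ran from 10.34 to 11.13 with a median of 10.76, and those at 500 mg/kg were 11.91, 11.34, 11.49 and 12.03. In kidney they were 9.69, 9.33, 9.30, 9.40 and 9.57 in controls and 9.23, 9.08, 9.52 and 9.32 at 500 mg/kg. The dosed livers were all above the control livers, while the kidney groups overlapped. The liver effect was 0.90 (adjusted p = 0.000723), the kidney effect -0.17 (adjusted p = 0.87), and the difference 1.08 with an SE of 0.23 (adjusted p = 0.0204), a 2.11-fold gap. Without kidney replicate 3 it was 1.15 (adjusted p = 0.0324).

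Me1, the cytosolic malic enzyme that supplies NADPH for fatty acid synthesis, passed only as a difference between the organs. Control livers read 8.99, 9.55, 9.51, 8.71 and 9.13 and dosed livers 9.80, 9.10, 9.66 and 9.80. Control kidneys read 9.23, 9.50, 9.44, 9.32 and 9.58 and dosed kidneys 8.86, 9.20, 8.64 and 8.96. The liver groups overlapped, with dosed replicate 2 below the control mean, and the dosed kidneys all lay below the controls. The effects were 0.41 in liver (adjusted p = 0.0936) and -0.50 in kidney (adjusted p = 0.091), and the difference was 0.91 with an SE of 0.19 (adjusted p = 0.0197). Kidney replicate 3 was the lowest, and without it the difference was 0.82 and did not pass (adjusted p = 0.0803). A second probe set of Me1 gave 1.06 (adjusted p = 0.0964 over all probe sets).

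The sequence before the annotated start is shown for Acly and Me1, the 2 called genes of fatty acid synthesis. RefSeq (GRCr8) held a promoter entry for 10 of the 13 called genes. Each line gives the 250 bases before the start, 5′ to 3′ on the gene's strand, Acly on chr10:85963632-85963881 and Me1 on chr8:96540245-96540494, both on the minus strand. Capitals mark matches, on either strand, to the antioxidant response core TGACNNNGC, the E-box CACGTG, the sterol element TCACNCCAC or the box CCAAT. 
Acly: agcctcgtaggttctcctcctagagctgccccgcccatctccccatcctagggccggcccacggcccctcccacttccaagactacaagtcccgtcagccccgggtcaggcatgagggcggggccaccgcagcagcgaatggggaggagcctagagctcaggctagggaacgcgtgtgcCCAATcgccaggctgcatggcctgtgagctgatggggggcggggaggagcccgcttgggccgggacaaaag
Me1: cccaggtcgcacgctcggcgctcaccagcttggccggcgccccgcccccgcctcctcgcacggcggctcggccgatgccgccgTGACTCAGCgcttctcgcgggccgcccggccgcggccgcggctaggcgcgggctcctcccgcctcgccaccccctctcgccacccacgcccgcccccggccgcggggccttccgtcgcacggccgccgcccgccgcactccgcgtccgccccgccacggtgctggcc
Me1 held 1 antioxidant response core, starting at position -167, and Acly held 1 CCAAT box, starting at -71. The antioxidant core occurred in 10.1% of 33469 rat promoter windows of this length, CCAAT in 34%, the E-box in 5.59% and the sterol element in 0.974%. The windows of Sqstm1 and Acsm2 held none of the 4. These are matches of letters in a short window and say nothing of whether a factor binds there.

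The other genes of fatty acid synthesis differed among themselves. Of 21 listed, 18 were tested. Their median difference between the organs was 0.35 against -0.01 over all genes. Of the 18, 14 were above 0, against 5018 above and 5655 below among all 10673 genes, and Acly and Me1 passed, both higher. In liver 15 were above their control mean, with Acly and Elovl6 called, and in kidney 12 were, with Fads1 called. Among all 10673 genes, 5581 were above 0 in liver and 5993 in kidney. The share of all genes called was 1.85% in liver, 0.244% in kidney and 0.122% in the difference. Elovl6, which lengthens palmitate, had 1.28 in liver and 0.23 in kidney, and its difference of 1.05 did not pass (adjusted p = 0.242). Fads1, the delta-5 desaturase of polyunsaturated fatty acids, went the other way. It had 9.28 to 10.17 in control kidneys and 10.10 to 10.72 in dosed ones, with replicate 3 the highest, and means of 12.14 and 12.06 in control and dosed livers. Fads1 rose in kidney by 0.67 (adjusted p = 0.00993). Its difference was -0.75 (adjusted p = 0.0857), and -0.62 without kidney replicate 3.

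Genes of cholesterol synthesis and uptake mostly had effects above 0 in both organs, with Tm7sf2, Ebp and Insig1 called in liver and none in kidney. The median effect of the 20 tested was 0.31 in liver and 0.14 in kidney, and 19 and 20 of them were above 0. Of all 10673 genes, 5581 were above 0 in liver and 5993 in kidney, and 1.85% and 0.244% were called. The difference was above 0 for 18, against 5018 of all 10673 genes, with a median of 0.16. It was below 0 for Nsdhl and Srebf2, at -0.09 and -0.08. No member passed in the difference. Tm7sf2, a sterol reductase, had 10.33 to 10.61 in control livers and 11.01 to 11.46 at 500 mg/kg, and 7.67 to 8.32 and 7.82 to 8.41 in the kidney groups. Its difference was 0.64 (adjusted p = 0.0997). Ebp, the sterol isomerase, had 0.34 (adjusted p = 0.297) and Insig1, which holds the sterol sensor in the endoplasmic reticulum, 0.54 (adjusted p = 0.669), with 0.94 in liver and 0.40 in kidney.

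Sqstm1, the autophagy receptor p62, rose in liver and not detectably in kidney. Control livers read 11.38, 11.53, 11.52, 11.37 and 11.55 and dosed livers 11.91, 11.72, 11.77 and 12.04. Control kidneys read 11.24, 11.29, 11.04, 11.18 and 11.27 and dosed kidneys 11.09, 11.15, 10.93 and 11.09. The livers did not overlap and the kidneys did. The liver effect was 0.39 (adjusted p = 0.000549), the kidney effect -0.14 (adjusted p = 0.584) and the difference 0.53 with an SE of 0.10 (adjusted p = 0.00637). A second, dimmer probe set gave 0.29 (adjusted p = 0.513), and 2 dim ones 0.21 and 0.08.

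Fbxo6 and Rnf139 also belong to protein disposal. Fbxo6, an F-box protein that recognises glycoproteins leaving the endoplasmic reticulum, had 8.46 to 8.78 in control livers and 8.96 to 9.08 in dosed ones, and 9.09 to 9.38 and 9.01 to 9.21 in kidney. Its difference was 0.47 (adjusted p = 0.0344). Rnf139, a ubiquitin ligase of the endoplasmic reticulum membrane, had 9.68 to 9.80 and 9.86 to 10.07 in liver and 8.94 to 9.15 and 8.84 to 8.99 in kidney. Its difference was 0.40 (adjusted p = 0.0129). For both the liver groups were apart and the kidney groups overlapped, and without kidney replicate 3 neither passed (adjusted p = 0.0785 and 0.0741).

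Acsm2 and Lactb2 encode mitochondrial enzymes with high values in kidney. Acsm2 is a medium-chain acyl-CoA synthetase that activates carboxylic acids before their conjugation with glycine. Its control livers read 6.66, 7.0, 6.85, 6.10 and 6.58 and its dosed livers 7.75, 7.37, 7.65 and 7.69. Its kidneys read 12.86 to 13.15 without and 12.83 to 13.02 with MCHM. The liver effect of 0.97 passed (adjusted p = 0.000437), the kidney effect was -0.06, and the difference was 1.03 (adjusted p = 0.044), or 1.06 without kidney replicate 3 (adjusted p = 0.08). Levels of the 2 organs can be set side by side only as far as their arrays were normalized together, which no source used here states.

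Lactb2, an RNA-cleaving enzyme of mitochondria, had effects of opposite sign in the organs. Control livers read 10.81, 10.83, 10.93, 10.82 and 10.94 and dosed livers 11.16, 10.87, 11.31 and 11.30. Control kidneys read 12.10, 12.39, 12.39, 12.37 and 12.54 and dosed kidneys 12.18, 12.09, 11.91 and 12.08. Dosed liver replicate 2 lay among the controls, and the lowest control kidney lay among the dosed ones. The liver effect of 0.29 passed (adjusted p = 0.0328), the kidney effect of -0.29 did not (adjusted p = 0.088), and the difference was 0.59 with an SE of 0.11 (adjusted p = 0.00637).

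Asap2, Hes6, Atp1b1 and Sectm1b share no pathway. Asap2 activates the GTPase of Arf proteins in membrane traffic. It read 7.64, 7.22, 7.77, 7.93 and 7.67 in control livers, 8.20, 8.40, 8.15 and 8.13 in dosed livers, 8.13, 8.28, 8.46, 8.12 and 8.23 in control kidneys and 8.06, 8.21, 8.07 and 8.11 in dosed kidneys. The livers were apart and the kidneys overlapped. The difference was 0.70 with an SE of 0.12 (adjusted p = 0.00637), and 0.69 without kidney replicate 3 (adjusted p = 0.0319).

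Hes6, a helix-loop-helix protein of the Hairy and Enhancer of split family, had 9.71 to 10.27 in control livers and 10.63 to 11.04 at 500 mg/kg, against 10.18 to 10.40 and 10.04 to 10.39 in kidney. Its difference was 0.86 (adjusted p = 0.0204). Atp1b1, the beta subunit of the sodium pump, had 8.36 to 8.66 and 8.81 to 9.22 in liver and 13.55 to 13.69 and 13.59 to 13.62 in kidney. Its difference was 0.55 (adjusted p = 0.0344), but a second probe set gave 0.29 (adjusted p = 0.468). In both genes only the liver groups were apart.

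Sectm1b, a secreted and membrane protein that binds receptors of lymphocytes, was like Me1 in its mean effects, positive in liver and negative in kidney. Control livers read 7.85, 7.74, 7.55, 7.63 and 7.87 and dosed livers 7.93, 8.32, 8.13 and 7.99. Control kidneys read 8.59, 8.60, 8.54, 8.13 and 8.90 and dosed kidneys 8.31, 8.23, 7.69 and 8.0. The livers were apart by a small gap and the kidneys overlapped, with dosed replicate 3 the lowest. Neither organ passed by itself (adjusted p = 0.106 and 0.0606), and the difference was 0.86 (adjusted p = 0.0129). Without kidney replicate 3 it was 0.74 (adjusted p = 0.08).

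Without kidney replicate 3 the differences of Sqstm1 and Lactb2 were 0.49 and 0.54 (adjusted p = 0.0324 for both), and that of Tfpi, described next, was -0.63 (adjusted p = 0.0324). Those of Hes6, Atp1b1, Fbxo6, Rnf139 and Aph1a were 0.81, 0.55, 0.48, 0.38 and -0.34 and did not pass (adjusted p = 0.08, 0.0803, 0.0785, 0.0741 and 0.0785).

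Tfpi and Aph1a were the called genes with the lower change in liver. Tfpi, the inhibitor of the tissue factor pathway of clotting, read 8.36, 8.22, 8.08, 8.14 and 8.34 in control livers and 7.70, 7.92, 7.91 and 7.58 in dosed ones. In kidney it read 8.78, 8.31, 8.54, 8.63 and 8.45 without and 8.74, 8.72, 8.77 and 8.71 with MCHM. The livers were apart and the kidneys overlapped. Tfpi fell in liver by 0.45 (adjusted p = 0.00201), the kidney effect was 0.19, and the difference was -0.65 with an SE of 0.12 (adjusted p = 0.00921). A second, dimmer probe set gave -0.22. Aph1a, a subunit of gamma-secretase, had 9.31 to 9.40 and 9.08 to 9.29 in liver and 9.10 to 9.43 and 9.30 to 9.50 in kidney, and its difference was -0.33 (adjusted p = 0.0344).

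The next genes in that direction did not pass. Cav2, a coat protein of caveolae, had 7.81 to 8.21 in control livers, 6.98 to 7.37 in dosed ones, 8.19 to 8.65 in control kidneys and 8.02 to 9.01 in dosed ones, with replicate 3 the highest. Its difference was -0.98 (adjusted p = 0.062) and -0.81 without that array (adjusted p = 0.231). When all probe sets were tested, another one of Cav2 passed at -1.03 (adjusted p = 0.042). Etfbkmt, a mitochondrial lysine methyltransferase, had -0.77 (adjusted p = 0.0703), with a liver effect of -0.61 and a kidney effect of 0.16. Ghr, the growth hormone receptor, had -0.46 (adjusted p = 0.0703), with 11.78 to 11.88 in control livers and 11.48 to 11.60 in dosed ones, but a second probe set gave 0.06.

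Cav2 is also on the list of endothelial and stromal markers. Of the 18 genes listed 16 were tested, and 14 of these were below 0, against 5655 of all 10673 genes. Their median was -0.30, or -0.21 without kidney replicate 3. The summed level of the 16 was 12.08 to 12.37 in control livers and 11.93 to 12.13 in dosed ones, and 12.06 to 12.48 and 12.21 to 12.79 in kidney, with replicate 3 the highest. Lum, a matrix protein, had the lowest difference, -1.21 with an SE of 0.66 (adjusted p = 0.639), with 1.13 in kidney (adjusted p = 0.444). No tested member of the list passed in the difference. What part these cells had in the values of Cav2 and Tfpi was not tested. The macrophage and lymphocyte markers summed to 12.20 to 12.60 in dosed livers and 12.59 to 12.98 in controls, and to 13.11 to 13.51 in control and 13.09 to 13.33 in dosed kidneys. Cd74, the invariant chain of antigen presentation, fell in liver by 0.59 (adjusted p = 0.00578), and its difference of -0.52 did not pass (adjusted p = 0.259).

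Hpd, the dioxygenase that makes homogentisate in tyrosine breakdown, had the smallest adjusted p of the kidney effects, though not the largest effect. Control kidneys read 12.23, 12.10, 12.03, 12.07 and 12.09 and dosed kidneys 12.65, 12.46, 12.77 and 12.46, with no overlap. The kidney mean was 12.10 in controls and 12.59 at 500 mg/kg. At 0.1, 1, 10, 100 and 300 mg/kg the kidney mean was 12.28, 12.34, 12.27, 12.29 and 12.36, above the controls at each dose. Livers read 12.82 to 12.98 without and 12.94 to 13.05 with MCHM. Hpd rose in kidney by 0.48 (adjusted p = 1.99e-06), the liver effect was 0.13 (adjusted p = 0.284), and the difference was -0.35 (adjusted p = 0.0703), so the organs were not shown to differ.

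The genes called in kidney had small effects in liver. None of the 26 differed between the organs by the test, where 0.122% of all genes did, so that this count is near the background. Those named here were chosen after their values were seen. The 17 that rose had a median of 0.53 in kidney and 0.06 in liver, and the 9 that fell had -0.38 and -0.07. All 26 were chosen by their kidney effect, which by itself favours a smaller median in liver. Dnase1, a secreted nuclease, rose by 0.87 (adjusted p = 0.00302), from a mean of 10.70 in control to 11.58 in dosed kidneys, with 0.03 in liver and a difference of -0.84 (adjusted p = 0.094). Acsm1, a relative of Acsm2, rose in kidney by 0.53 (adjusted p = 0.00302) with 0.00 in liver, and its difference was -0.52 (adjusted p = 0.0831). Cyp2e1, the ethanol-inducible cytochrome, rose in kidney by 0.60 (adjusted p = 0.00673) with 0.10 in liver and a difference of -0.50 (adjusted p = 0.259).

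Among those that fell in kidney were 2 glutathione transferases. Gstp1 had 12.10 to 12.80 in control kidneys and 11.52, 12.22, 10.72 and 12.04 in dosed ones, the lowest being replicate 3. Its kidney effect was -0.88 (adjusted p = 0.00294), its liver effect -0.13, and the difference 0.75 (adjusted p = 0.145), or 0.45 without replicate 3. Gsta1 had -0.34 in kidney (adjusted p = 0.00429) and 0.02 in liver, with a difference of 0.37 (adjusted p = 0.0779). Mbl2, a lectin of the complement system, had 4.82 to 5.85 in control kidneys and 4.50 to 4.86 in dosed ones, with -0.74 (adjusted p = 0.00429), -0.07 in liver and a difference of 0.66 (adjusted p = 0.156). The kidney arrays had medians of 5.33 to 5.38, so its dosed readings and part of the control range were low. Without control kidney replicate 2, which had high hepatocyte markers, the kidney effect of Mbl2 was -0.64 (adjusted p = 0.0295) and the difference 0.56. Without replicate 3, Hpd, Dnase1 and Mbl2 were the 3 genes called in kidney (0.0281%, 0.0187% higher and 0.00937% lower).

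The genes called in liver likewise had small effects in kidney. They were chosen by their liver effect, which by itself favours a smaller median in kidney. The 96 that rose had a median of 0.38 in liver and 0.05 in kidney, where 66 were above 0, and the 101 that fell had -0.43 and -0.05, with 67 below 0. Of all 10673 genes, 5993 were above 0 and 4680 below 0 in kidney. None of the 197 was called in kidney, where 0.244% of all genes were, so that this count is near the background. Across the 10673 genes the 2 effects had a Pearson correlation of 0.204, and 0.198 without kidney replicate 3. Genes measured on the same arrays are not independent replicates, so this is a description.

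The glutathione transferases and the Nrf2 targets had medians above that of all genes. Of 19 glutathione transferases tested, 17 were above 0, with a median of 0.25 from 0.13 in liver and -0.07 in kidney, and Gstz1 and Gstm5 were below, at -0.22 and -0.19. None passed, although 9 had an unadjusted p under 0.05 on the higher side and 1 on the lower, against 378 and 534 of all 10673 genes. Gsta3 had the largest, 1.04, nearly all of it from the liver effect of 0.97, whereas the values of Gstp1, Gstm1 and Gsta1 came from kidney. Of 24 Nrf2 targets 17 were above 0, against 5018 of all 10673 genes, with a median of 0.21. Me1 was the only one called, where 0.122% of all genes were, and it did not pass without kidney replicate 3. Srxn1, which restores oxidised peroxiredoxins, rose in liver by 0.56 (adjusted p = 0.0386) and had a difference of 0.63 (adjusted p = 0.275). Nqo1, a quinone reductase, had 0.44 (adjusted p = 0.67), or 0.23 without kidney replicate 3, with 0.03 in liver.

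Enzymes of drug and alcohol handling were divided. Ces2c, a carboxylesterase, rose in liver from 7.24 to 7.74 in controls to 7.99 to 8.54 (adjusted p = 7.32e-05), with 7.39 to 7.61 and 7.54 to 7.72 in kidney. Its difference was 0.69 (adjusted p = 0.0719). Bdh2, a short-chain dehydrogenase, rose in liver by 0.80 (adjusted p = 0.00134) with -0.02 in kidney, and its difference was 0.82 (adjusted p = 0.081). Its livers were low, at 4.77 to 5.28 in controls and 5.61 to 6.18 in dosed ones, where liver arrays had medians of 5.26 to 5.32. Its control kidneys read 10.17 to 10.54. The 14 tested targets of the receptors CAR and PXR had a median of 0.16, the 7 AhR targets 0.12 and the 17 alcohol and aldehyde oxidation genes 0.05, with no member called in any of the 3.

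**Figure D3:**
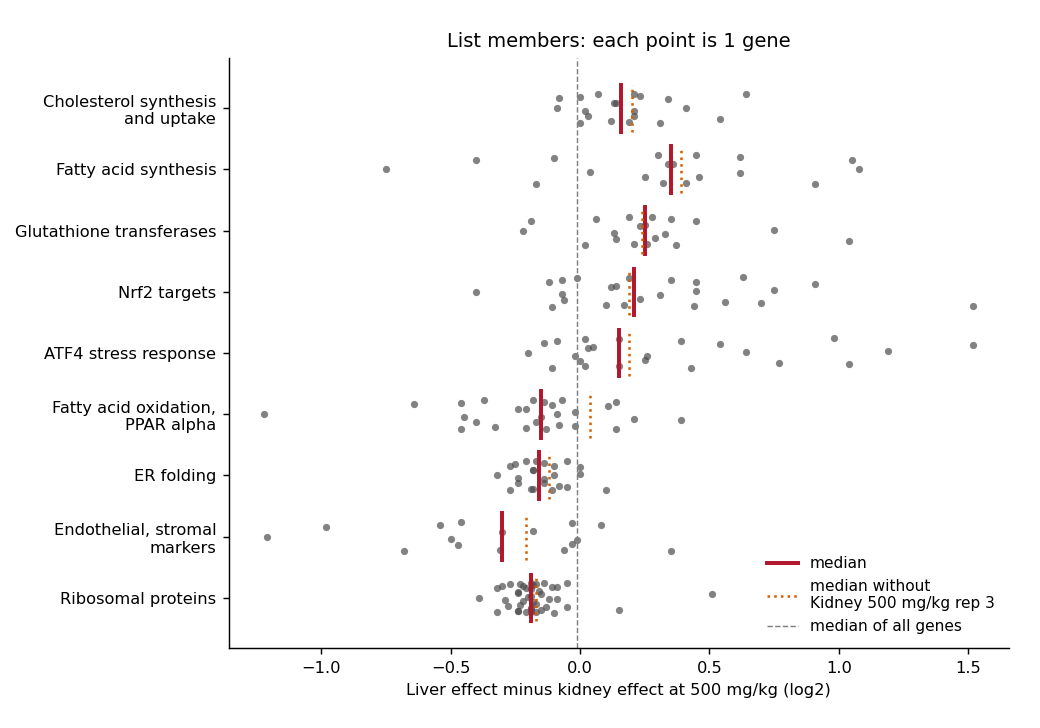
Difference between the organs (x axis, log2) of every tested member of 9 gene lists, 1 point a gene, with the list median in red, the median without kidney 500 mg/kg replicate 3 dotted in orange and the median of all genes dashed. Cholesterol, fatty acid, transferase, Nrf2 and ATF4 lists lie to the right, and the median of the fatty acid oxidation list moves from -0.15 to 0.04 without that array.

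Stress genes driven by ATF4, the transcription factor of the amino acid response, mostly had differences above 0. Of 23 tested, 17 had a difference above 0, against 5018 of all 10673 genes, with a median of 0.15, and none passed. Trib3, a pseudokinase, had 7.69 to 8.51 in control livers and 10.70, 8.75, 10.15 and 9.34 in dosed ones, and 4.50 to 5.08 and 4.85 to 5.06 in kidney. It rose in liver by 1.66 (adjusted p = 0.00872), and its difference of 1.52 had an SE of 0.52 (adjusted p = 0.28). The kidney readings of Trib3 lay below the medians of the kidney arrays, 5.33 to 5.38, and say little about a response there. Mthfd2, a mitochondrial folate enzyme, had 0.77 (adjusted p = 0.304). The folding enzymes of the endoplasmic reticulum lay on the other side. Of 24 tested, Ero1a alone was above 0, at 0.10, and the median was -0.16, from -0.10 in liver and 0.03 in kidney. Erlec1, a lectin for misfolded glycoproteins, fell in liver by 0.29 (adjusted p = 0.000296), with -0.02 in kidney and a difference of -0.27 (adjusted p = 0.081).

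Transcripts of ribosomal proteins had small differences of one sign. The 43 tested were grouped after their values were seen, so the pattern has no test. Their median was -0.19, made of -0.06 in liver and 0.13 in kidney, and 41 were below 0, against 5655 of all 10673 genes. Under quantile normalization over both organs, where the median of all genes was 0.00, it was -0.15, and without kidney replicate 3 it was -0.17. Rpsa had 12.02 to 12.17 and 11.87 to 12.04 in the liver groups and 12.28 to 12.39 and 12.48 to 12.60 in the kidney groups, with a difference of -0.32 (adjusted p = 0.062). Rplp0 had -0.32 (adjusted p = 0.0703) and Rpl21 -0.39 (adjusted p = 0.0831). Rps28 rose in kidney by 0.22 (adjusted p = 0.0379). The 2 exceptions were Rpl7l1 at 0.15 and Rps4y2 at 0.51.

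The median of the fatty acid oxidation genes changed sign with a single kidney array. The 27 tested genes of this pathway and of PPAR alpha, its regulator, had a median of -0.15. Of these 5 were above 0, against 5018 of all 10673 genes. Without kidney replicate 3 the median was 0.04, with 14 above 0. Angptl4, an inhibitor of lipoprotein lipase, had -1.22 (adjusted p = 0.498) and -0.73 without that array. Ehhadh, a peroxisomal enzyme, rose in liver by 0.64 (adjusted p = 0.00291) with a difference of 0.39 (adjusted p = 0.534). The medians of the adipose marker lists changed sign as well, and the part of these markers in the fatty acid oxidation list was not tested. The 9 white adipose genes tested had a median of -0.82, and 0.05 without the array, when 6 were above 0 and 3 below. Fabp4 went from -1.47 to 0.09, Cfd from -1.46 to 0.01 and Ucp1 from -1.78 to 0.18.

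Growth hormone and IGF genes, cell cycle genes and early response genes had no called difference. Of 15 in the growth hormone and IGF list 13 were below 0, against 5655 of all 10673 genes, with a median of -0.23. Igfbp3, a carrier of IGF, had -0.19 in liver, 0.68 in kidney and a difference of -0.87 (adjusted p = 0.309). Cell cycle genes had medians of -0.24 in liver and -0.23 in kidney and a median difference of -0.02. Ccnb1, the cyclin of mitotic entry, fell in liver by 0.99 (adjusted p = 0.000999), with -0.31 in kidney, and a second probe set gave -0.62 and -0.56. Egr1, an immediate-early transcription factor, had the lowest difference of the named genes, -2.40, from 8.75 to 10.93 in control livers and 6.17 to 7.74 in dosed ones, with 6.53 to 7.05 and 6.51 to 7.09 in kidney. With an SE of 0.70 it did not pass (adjusted p = 0.149). Noct, a clock-controlled phosphatase, had 1.79 in the other direction (adjusted p = 0.145), from 3.47 to 4.79 and 5.49 to 6.23 in liver. The control readings of Noct lay below the medians of the liver arrays, 5.26 to 5.32, so its rise starts from low readings.

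Of 17 kidney injury markers tested, 5 had a difference above 0, against 5018 of all 10673 genes, and none passed in the difference. The median difference was -0.13, with -0.14 in liver and -0.02 in kidney. Clu, an injury-induced chaperone, had 0.32 in kidney (adjusted p = 0.197) and a difference of -0.37 (adjusted p = 0.367), and Cst3, cystatin C, -0.44 (adjusted p = 0.156). Slc22a2, the cation transporter of the tubule, had 11.32 to 12.46 in control kidneys and 11.51, 11.95, 10.65 and 11.67 in dosed ones, the lowest being replicate 3, and a difference of 0.83 (adjusted p = 0.212), or 0.57 without it. Respiratory chain genes (36 tested, median 0.03) and proteasome genes (30 tested, median 0.06) had medians near that of all genes, with none called. Glud1, glutamate dehydrogenase, had 0.25 (adjusted p = 0.111), and the 30 amino acid breakdown genes a median of 0.03.

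A further 1128 genes were above the filter on their probe set in a single organ only or on different probe sets. With these included, 11801 genes were tested and 14 passed (0.119%, 0.102% higher and 0.0169% lower), the added one being Tat, tyrosine aminotransferase. Tat was above the filter in liver only, so its value is a liver effect set against kidney readings that did not pass the filter and shows nothing about a response in kidney. It had 8.38 to 9.15 in control livers and 9.45 to 10.64 in dosed ones, and 3.52 to 4.07 and 3.33 to 3.90 in kidney. The difference was 1.55 with an SE of 0.34 (adjusted p = 0.0367), and 1.63 without kidney replicate 3 (adjusted p = 0.0746). Of 4 listed drug-metabolising cytochromes of the CYP3A family above the filter in a single organ, Cyp3a18 and Cyp3a23-3a1 rose in liver by 0.61 (adjusted p = 0.00169) and 0.58 (adjusted p = 0.0272), and their differences of 0.68 and 0.78 did not pass (adjusted p = 0.0709 and 0.0978). Cyp3a2 had 0.02 in liver (adjusted p = 0.99) and Cyp3a9 1.02 (adjusted p = 0.0655). Cyp3a18 and Cyp3a23-3a1 were above the filter in liver only, so the limit given for Tat holds for them too.

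Nim1k, a kinase, fell in liver by 1.66 (adjusted p = 0.00598), with a difference of -1.65 (adjusted p = 0.163). Its kidney readings of 2.93 to 3.46 did not pass the filter and show nothing about a response in kidney. Cxcl9, an interferon-induced chemokine, had -1.05 (adjusted p = 0.159). Itih3, a plasma protein of hepatocytes, had 1.07 (adjusted p = 0.137) with 0.05 in liver, and its kidney readings of 3.27 to 5.99 did not pass the filter. Orm1 had 0.88 (adjusted p = 0.194). Cxcl9 and Orm1 were also above the filter in liver only. Cacna1h, Cwh43 and Kcnq1, above the filter in kidney only, had -0.71, -0.62 and -0.54, and none of the 3 passed. Their liver readings show nothing about a response in liver.

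At 300 mg/kg no gene differed between the organs by limma's test (0%), with 587 at an unadjusted p under 0.05. The contrast shares its control arrays with that at 500 mg/kg, so the values are set side by side and not counted as support. Acly had 0.38 at 300 mg/kg and 1.08 at 500 mg/kg, Acsm2 0.93 and 1.03, Me1 0.60 and 0.91, and Hes6 0.40 and 0.86. Asap2 had 0.57 and 0.70, Sqstm1 0.44 and 0.53, and Lactb2 0.32 and 0.59. Tfpi had -0.25 and -0.65, and Aph1a -0.09 and -0.33. The 18 fatty acid synthesis genes tested had a median of 0.35 at 500 mg/kg. At 300 mg/kg their median was -0.00, with 9 above 0 and 9 below. Of the liver effects at 300 mg/kg, those of Sqstm1 (0.36, adjusted p = 0.00819) and Acsm2 (0.84, adjusted p = 0.0125) passed. The third kidney array at 300 mg/kg also had high adipose markers, at 15.01 summed for white fat against 10.15 to 10.23.

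At the lower doses the differences of the genes given here were all smaller in size than at 500 mg/kg. For some they were as large as at 300 mg/kg. The genes were called at 500 mg/kg, which by itself favours smaller values at the other doses. The control arrays are shared here too, so the values are only set side by side. Sqstm1 had 0.06, 0.09, 0.04 and 0.05 at 0.1, 1, 10 and 100 mg/kg, and Asap2 0.03, 0.11, 0.05 and 0.15. Acly had -0.28, 0.42, -0.18 and 0.10, so that its value at 300 mg/kg lay within the range of the lower doses. Aph1a had -0.18, -0.26, -0.17 and -0.08, and Sectm1b was below 0 at each of the 4, between -0.32 and -0.19, before 0.23 at 300 and 0.86 at 500 mg/kg.

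**Figure D4:**
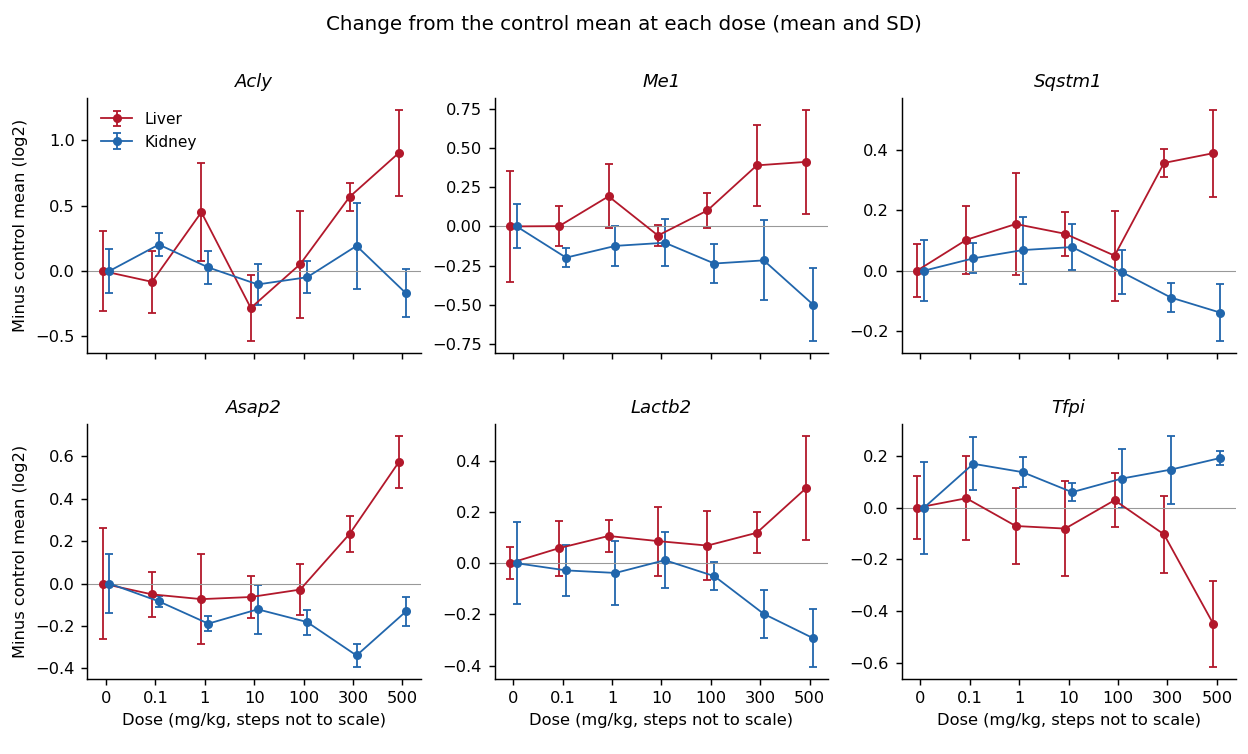
Change from the control mean of the organ at each dose for 6 called genes, as mean and SD over 4 arrays (5 at 0 mg/kg), with liver in red and kidney in blue. At 500 mg/kg the liver lies above the kidney for Acly, Sqstm1 and Asap2 and below it for Tfpi, while Acly also has a difference of 0.42 at 1 mg/kg.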

How the data were processed

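Total RNA of each organ was hybridised to an Affymetrix rat genome expression array. The authors deposited log2 values made with RMA, per the submitters' processing notes, which give no version. No source used here states if liver and kidney arrays went through RMA as one set. The log2 values ran from 1.75 to 14.85 over 31099 probe sets and 58 arrays. Of the probe sets, 57 were controls, 20826 had 1 symbol in the platform annotation, 436 several and 9780 none.

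Probe sets entered if, in each organ, 4 or more arrays had them above the 40th percentile of that array, and the brightest over all 58 arrays stood for a gene. Group means of 14 groups (organ and dose, from the titles) were fitted in limma 3.58.1 under R 4.3.3 (lmFit, eBayes with intensity trend), with Benjamini-Hochberg adjustment over the 10673 genes of a contrast. The fit was also run on simulated data with known changes and independent normal noise, with the same spread of a gene in both organs. The simulated data held no outlying array and no pairing of organs, so that run does not bear on either. An array has no depth, so the number of arrays limits the precision. The labels do not tie a liver to a kidney of the same rat or name a batch, and no more than biological replicates are stated, so p-values measure the spread between these arrays. No 2 arrays held identical values.

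The rule for named genes took the called genes whose dosed arrays did not overlap between organs (up to 12 a direction, filled to 8 by the smallest p), the 4 measured members of smallest p in each of 35 gene lists, and the 5 genes each way of smallest p among those above the filter in 1 organ only; the text gives a selection and says where others were added. The comparison, members and lists were chosen with earlier results of these data known. Alternatives were the filter, the choice of probe set, the arrays in the fit, the spread of each organ, the trend, robust and weighted fits, renormalization, replicate blocks, a 1.5-fold minimum and each array left out. The fit without both kidneys with high adipose transcripts was chosen after seeing the data.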

Additional observations from a re-analysis of the deposited data

Results flagged for a closer look

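The 13 genes below are those whose effect at 500 mg/kg differed between liver and kidney by the test of the difference itself. As liver effect minus kidney effect on the log2 scale, they were Acly at 1.08, Acsm2 at 1.03, Me1 at 0.91, Sectm1b at 0.86, Hes6 at 0.86, Asap2 at 0.70, Lactb2 at 0.59, Atp1b1 at 0.55, Sqstm1 at 0.53, Fbxo6 at 0.47, Rnf139 at 0.40, Tfpi at -0.65 and Aph1a at -0.33. Kidney 500 mg/kg replicate 3 lay far from the other 3 arrays of its group in the summed white adipose markers, at 13.95, and in the summed brown adipose markers, at 13.77. For Hpd, liver 500 mg/kg replicate 1 lay below the other 3 at 12.94. Such a gap was looked for in 112 groups of values and found in 3, while chance gives about 1 in 20.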

How the results depend on the processing

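The 13 differences between the organs at 500 mg/kg became 25 with a filter at the 60th percentile, 84 with array quality weights, 21 and 20 with quantile or cyclic loess normalization within each organ, 8 with a 1.5-fold minimum, 0 with only the compared groups in the fit and 5 without the third kidney arrays at 300 and 500 mg/kg. They ranged from 4 to 54 over single arrays left out. The 197 liver calls became 96 with each organ's own spread and 51 with the 1.5-fold minimum, and ranged from 99 to 272. The 26 kidney calls became 4 with only the compared groups, 3 with each organ's own spread, 182 with weights, 44 with quantile normalization over both organs, 10 with the fold minimum and 3 without the third kidney arrays, and ranged from 3 to 81. The 0 calls at 300 mg/kg (587 genes at an unadjusted p under 0.05) ranged from 0 to 1. Where the construction does not show it (fewer genes or arrays), the cause was not tested. Other alternatives left these counts within 1.5 times. Sign changes among named genes were Ucp1 at 0.18, Cfd at 0.01, Fabp4 at 0.09 and Nsdhl at 0.03 without kidney 500 mg/kg replicate 3, alone or with its 300 mg/kg counterpart, Nsdhl at 0.01 without kidney 0 mg/kg replicate 2, and Gstm5 at 0.01 without kidney 500 mg/kg replicate 2. With single arrays left out, the ranges were -2.46 to 0.18 for Ucp1, -1.99 to 0.01 for Cfd, -2.23 to 0.09 for Fabp4, -0.17 to 0.03 for Nsdhl and -0.31 to 0.01 for Gstm5.

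Dose and replicate number as a fixed block gave 24 differences at 500 mg/kg and 1 at 300 mg/kg, as a random block 37 at 500 mg/kg, and the number alone as an additive block 6, with 93 liver calls. Of 29 same-numbered liver and kidney arrays, 21 had a correlation of deviations over 0.1 (range -0.0316 to 0.289, median 0.159), and 20 of the livers correlated best with their own number, a hint from the data and not from the design that numbers may pair organs.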
